A study of Homo sapiens with 2 samples.

Results

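DEAD and DEAH box proteins are the largest family of RNA helicases. They were taken from the deposited count table as the gene names that begin with DDX or DHX and a number. Names with a hyphen and names that end in P and a number were dropped. The rule gave 63 of the 60623 named genes, of which 55 are coding genes (39 DDX and 16 DHX) and 8 are pseudogene models (DDX12P and 7 names that begin with DDX11L). The rule used no measured value.

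The libraries came from HCT116, a human colon cancer line, grown in McCoy's medium with heat-inactivated fetal bovine serum. The siKAT7 culture was transfected with an siRNA against KAT7, and the siControl culture with a non-specific siRNA. The genotype of both is labelled wild type, and both siRNAs were delivered with Lipofectamine. KAT7, also called HBO1, is a histone acetyltransferase, and the study asked how its knockdown changes transcription. Each group had 1 library, so no value below has a replicate and no test was possible. In these bulk RNA samples a change in RNA per cell and a change in the makeup of the culture cannot be told apart.

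DEAD and DEAH box helicases use ATP to open short RNA duplexes or to strip proteins from RNA. Both groups share a pair of RecA-like helicase domains, and they take their name from a run of acidic residues in the ATP-binding site, the DEAD box. DEAH proteins carry further domains after the helicase core and are often switched on by proteins with a G-patch. Members act at each step of an RNA's life: splicing, ribosome assembly, export, translation, storage and decay, and the sensing of viral RNA.

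The box itself could be read from the coding sequences of GENCODE 29, in which 54 of the 55 coding members have it in frame downstream of the ATP-binding loop. The exception was DHX32, a member that also lacks the DEAD and C-terminal helicase domains in the authors' Pfam annotation. The codons of the box spell DEAD in 30 members, all with DDX names, and DEAH in 9, of which 8 have DHX names and the other is DDX11. The remaining members have DEVH (6), DECD (2), DECH (2), DEIH (2), DEVD (2) or DESD (1). The stretches below were chosen to show the main spellings and the members on which the results turn, with the 4 codons of the box in capitals and read 5′ to 3′.
DDX54: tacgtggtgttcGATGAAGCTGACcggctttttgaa
DDX31: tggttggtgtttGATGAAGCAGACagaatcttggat
DDX28: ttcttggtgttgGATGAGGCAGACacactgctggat
DDX39B: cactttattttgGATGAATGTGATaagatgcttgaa
DHX16: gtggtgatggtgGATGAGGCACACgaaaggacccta
DHX30: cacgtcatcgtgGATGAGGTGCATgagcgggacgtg
DDX19A: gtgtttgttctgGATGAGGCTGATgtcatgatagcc
DDX19B: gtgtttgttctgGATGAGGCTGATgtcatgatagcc

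DDX54, DDX31 and DDX28 show the DEAD spelling, DHX16 the DEAH spelling, DHX30 the DEVH spelling and DDX39B the DECD spelling. The stretches of the paralogues DDX19A and DDX19B are identical. In the Pfam annotation that the authors deposited, the HA2 domain, which follows the helicase core of DEAH proteins, is present in 15 of the 16 DHX members and 0 of the 39 DDX members. The DHX member without it is DHX58, which instead carries the RIG-I C-terminal domain that it shares with DDX58.

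The named genes summed to 23533186 expected counts (read counts estimated per gene) in siKAT7 and 23450331 in siControl, and the helicase members held 0.198% and 0.219% of them. KAT7 had 287.22 expected counts in siKAT7 and 442.94 in siControl, or 12.7 and 18.2 CPM (library-scaled counts, with TMM scaling). The siKAT7 level was 69.6% of the siControl level. The log2 ratio of KAT7, siKAT7 over siControl, was -0.52 (counting interval -0.74 to -0.31). The target of the siRNA thus fell short of the 1.5-fold limit used below, and ranked 763 from the lowest among 13217 measured genes. Without a replicate, the spread between cultures to set this drop against is not known. The epithelial markers CDH1, EPCAM, KRT8, KRT18, KRT19 and CDX2 had 17.2 to 5871 CPM in siKAT7 and 13.9 to 5720 CPM in siControl, while VIL1 was under 1 CPM in both. Of the markers of other cells, PTPRC and PECAM1 were at 0, and DCN, COL1A2 and KRT5 had at most 1 count in either library. COL1A1 had 706 counts in siKAT7 and 760 in siControl.

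Most helicase genes differed little between the libraries. Of the 63 members, 49 had a mean of at least 1 CPM and are called measured below, 48 of them coding. None was at least 1.5-fold higher in siKAT7, and 3 were at least 1.5-fold lower with a 95% counting interval that excluded a log2 ratio of 0: DDX31, DDX28 and the pseudogene DDX12P. Among all 13217 measured genes, 3.91% were 1.5-fold higher and 3.91% were 1.5-fold lower by the same rule. The 3 lower members were 6.12% of the 49 measured, and the 2 coding ones were 4.17% of the 48 coding members. These shares rest on few genes, and the set of all measured genes was not limited to coding genes. With a limit of 25% above an equal level in place of 1.5-fold, 0 members were higher and 6 lower, against 10.1% and 10.9% of all genes. At 2-fold, 0 members were higher and 0 lower, against 1.35% and 1.09% of all genes.

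The median log2 ratio of the 49 measured members, siKAT7 over siControl, was -0.09, and that of all measured genes was -0.0049. The interquartile range of the members ran from -0.16 to 0.09, and that of all genes ran from -0.19 to 0.18. A log2 ratio below 0 was found in 31 members (63.3%) and in 50.7% of all genes. Counting intervals lay wholly below 0 for 13 members (26.5%) and wholly above 0 for 4 (8.16%), against 22.0% and 23.0% of all genes. With total-count scaling 40 of the 49 members were below 0 and 9 above, since that scaling moved the median of all genes to -0.11 and that of the members to -0.20. The members' median minus that of all genes was -0.08 under TMM scaling, and no replicate spread exists to set this gap against.

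**Figure D1:**
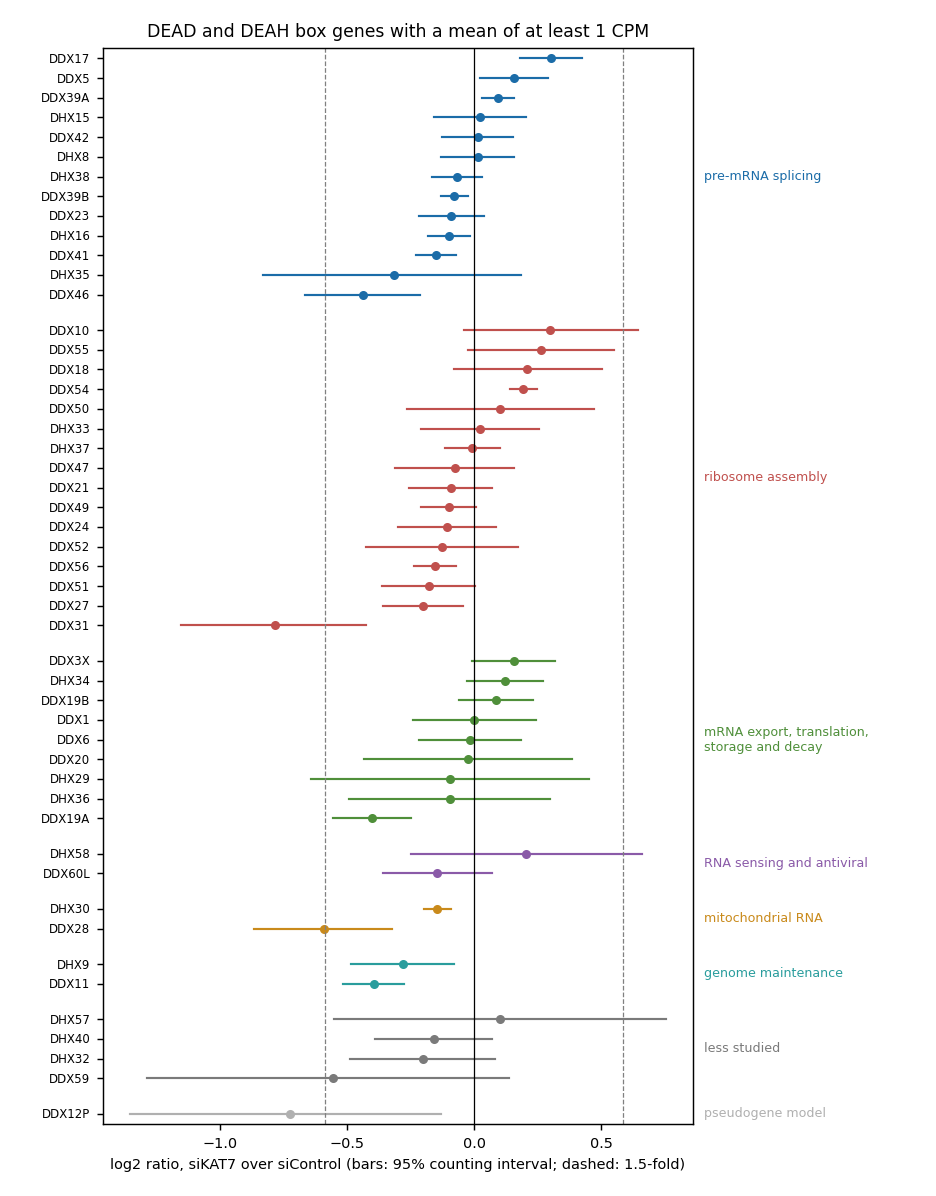
Log2 ratio, siKAT7 over siControl (x axis), of the 49 measured helicase genes (y axis), grouped by role and coloured by group. Points are single-library ratios and bars are 95% counting intervals; the dashed lines mark 1.5-fold. DDX31 (-0.78), DDX12P (-0.73) and DDX28 (-0.59) lie beyond the lower line and none lies beyond the upper one.

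**Figure D2:**
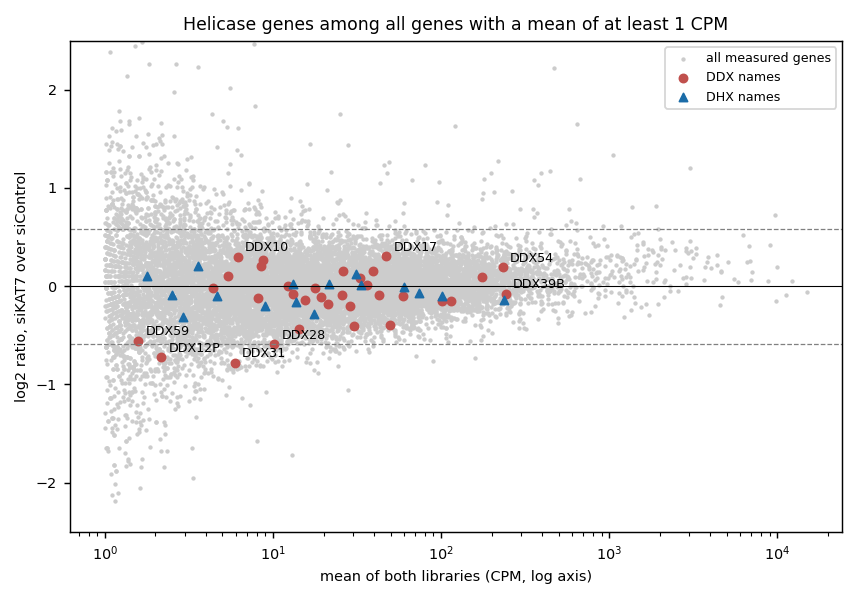
Log2 ratio, siKAT7 over siControl (y axis), against the mean of both libraries in CPM (log x axis), for all 13217 measured genes in grey, with DDX names as red circles and DHX names as blue triangles. Dashed lines mark 1.5-fold, and 32 genes lie outside the y range. The helicase genes lie between -0.78 and 0.30, inside the grey cloud.

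The levels of the members spanned a wide range in both libraries. Per kilobase of the deposited gene length, DDX39B was highest, at 140.3 CPM per kilobase in siKAT7 and 148 in siControl. DDX39B, also called UAP56, acts in spliceosome assembly and couples splicing to mRNA export. Its paralogue DDX39A came next, at 120.1 CPM per kilobase in siKAT7 and 112 in siControl. DHX30, DDX41 and DDX54 followed, at 59.8, 51.7 and 56.5 CPM per kilobase in siKAT7 and 66.1, 57.4 and 49.4 in siControl. DDX41 and DDX54 thus stood in the other order in siControl. These 5 genes made up 55.9% of the summed level of the members per kilobase in siKAT7 and 54.9% in siControl. At the low end of the measured members stood DHX57, at 0.379 CPM per kilobase in siKAT7 and 0.353 in siControl.

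**Figure D3:**
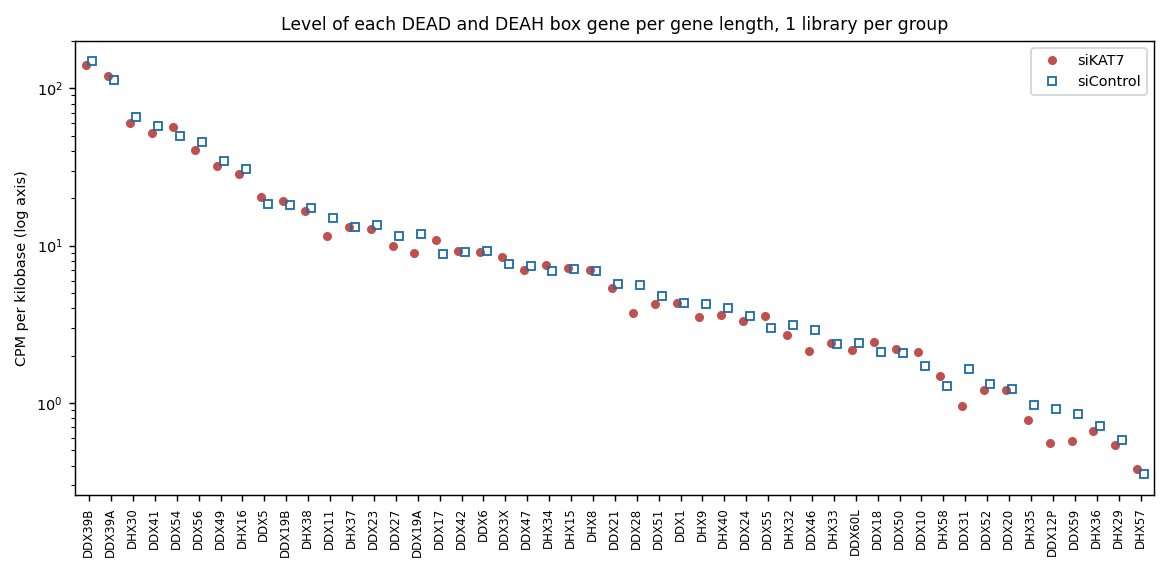
Level of each of the 49 measured helicase genes in CPM per kilobase of gene length (log y axis), ordered by the mean, with siKAT7 as filled circles and siControl as open squares, 1 library each. DDX39B and DDX39A stand above the rest, and the symbols of the libraries lie close together for most genes.

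The splicing group holds helicases that remodel the spliceosome and those that act on nascent transcripts. All 13 members were measured, 6 had a log2 ratio above 0 and 7 (53.8%) below, and none passed the 1.5-fold rule. Among all measured genes 50.7% were below 0 and 3.91% passed in each direction. Under total-count scaling DHX8, DHX15, DDX42 and DDX39A of the 6 turned negative. The group's median was -0.07. DDX46, the relative of yeast Prp5 that acts when the U2 particle joins the intron, was lowest, with 276 counts in siKAT7 and 401 in siControl (12.2 and 16.5 CPM). Its log2 ratio was -0.44 (interval -0.66 to -0.21). DDX17, a coregulator of transcription and splicing, was highest of all measured members, with 1180 counts in siKAT7 and 1026 in siControl. Its log2 ratio was 0.30 (0.18 to 0.43), or 1.23-fold, which is under the 1.5-fold limit.

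The log2 ratios of the splicing DEAH helicases DHX16, DHX38, DHX8 and DHX15 ran from -0.10 to 0.02. DHX16, the human counterpart of yeast Prp2, had 2205 counts in siKAT7 and 2534 in siControl, a log2 ratio of -0.10 (-0.18 to -0.02). DHX38, the counterpart of Prp16, had 1631.26 expected counts in siKAT7 and 1834 in siControl, a log2 ratio of -0.07 (-0.16 to 0.03). DHX8 and DHX15, the counterparts of Prp22 and Prp43, had log2 ratios of 0.01 (-0.13 to 0.16) and 0.02 (-0.16 to 0.21), and of -0.09 and -0.08 under total-count scaling. DDX23, the counterpart of Prp28 and a component of the tri-snRNP, had -0.09 (-0.22 to 0.04). DDX41, a spliceosome-associated helicase known as a tumour suppressor in myeloid leukaemia, had 2460 counts in siKAT7 and 2930 in siControl, a log2 ratio of -0.15 (-0.23 to -0.07). DHX35 rested on 59 counts in siKAT7 and 78.99 in siControl, and its interval of -0.83 to 0.19 spans most of the other members' values.

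The ribosome assembly group holds nucleolar helicases that fold and process ribosomal RNA precursors. All 16 members were measured, and 6 lay above 0 and 10 (62.5%) below, against 50.7% of all measured genes below 0. The 1.5-fold rule was passed by 1 member (6.25%), which was lower, against 3.91% of all measured genes. Of the 6 above 0, DDX50 and DHX33 turned negative under total-count scaling. The group's median was -0.08. DDX31, a nucleolar helicase, was the lowest measured member of the family, with 99.05 expected counts in siKAT7 and 182.89 in siControl (4.37 and 7.51 CPM). It was 1.72-fold lower in siKAT7, with a log2 ratio of -0.78 (-1.15 to -0.42), and 2.16% of all measured genes had a lower ratio. DDX10, a helicase of the small-subunit processome, was the highest of this group, with 155 counts in siKAT7 and 135 in siControl, a log2 ratio of 0.30 (-0.04 to 0.65).

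DDX55 and DDX18, which act in large-subunit assembly in yeast as Spb4 and Has1, had log2 ratios of 0.26 (-0.02 to 0.55) and 0.21 (-0.08 to 0.50). These intervals include 0. DDX54, the most abundant of the group per kilobase, had 5613.79 expected counts in siKAT7 and 5266.94 in siControl. Its log2 ratio was 0.19, and the deep count gave a narrow interval of 0.14 to 0.25. That interval does not cover the choice of scaling, since the ratio was 0.09 under total-count scaling. DDX56, also nucleolar, went the other way, with 2159 counts in siKAT7, 2578 in siControl and a log2 ratio of -0.15 (-0.24 to -0.07). DDX49 had 1299 counts in siKAT7 and 1495 in siControl, a log2 ratio of -0.10 (-0.21 to 0.01). DDX27 had a log2 ratio of -0.20 (-0.36 to -0.04). The nucleolar group thus held its best-counted members on both sides of 0, none of them past the 25% limit.

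Helicases of mRNA export, translation, storage and decay numbered 10, of which 9 were measured. None passed the 1.5-fold rule, against 3.91% of all measured genes in each direction. Of the 9, 4 lay above 0 and 5 (55.6%) below, against 50.7% of all measured genes below 0. The median was -0.02. DDX1 and DDX19B, counted above 0, turned negative under total-count scaling. DDX3X, which helps ribosomes scan structured leaders, had 624 counts in siKAT7 and 601 in siControl, a log2 ratio of 0.16 (-0.01 to 0.32). DDX6 represses mRNA and promotes its decapping in P-bodies. It had 400 counts in siKAT7 and 434.42 in siControl, a log2 ratio of -0.02 (-0.22 to 0.18). DDX19A, whose protein releases export factors at the cytoplasmic face of the nuclear pore, was the lowest of the group, with 593.36 expected counts in siKAT7 and 840.87 in siControl. Its log2 ratio was -0.40 (-0.56 to -0.25). Its neighbour and paralogue DDX19B had 773.63 in siKAT7 and 782.29 in siControl, a log2 ratio of 0.09 (-0.06 to 0.23) that was -0.02 under total-count scaling.

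The DDX19A and DDX19B values need care, since their coding sequences are 95.1% identical and a readthrough model, AC012184.2, spans both genes on chromosome 16. That model had 45.01 expected counts in siKAT7 and 121.72 in siControl. Reads that fit several of these models are divided by estimation. DDX19A held 43.4% of the counts of the pair in siKAT7 and 51.8% in siControl. The pair summed to 1366.99 in siKAT7 and 1623.16 in siControl, a log2 ratio of -0.15 (-0.25 to -0.04). With the readthrough model added, the ratio was -0.20 (-0.31 to -0.10). The part of this division in the value of DDX19A was not tested.

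Other related pairs are less alike over the whole coding sequence. The identities were 61.1% for DDX5 and DDX17, 80.1% for DDX39A and DDX39B and 66.9% for DDX21 and DDX50. Each identity came from the edit distance over the longer coding sequence, so a difference in length counts as mismatch. DDX5 and DDX17, coregulators of transcription that can bind each other, were both above 0 and stayed so under total-count scaling, at 0.05 and 0.20. Summed, they had 2115 counts in siKAT7 and 1926 in siControl, a log2 ratio of 0.24 (0.15 to 0.33). DDX39A and DDX39B lay on opposite sides of 0, at 0.10 (0.03 to 0.16) and -0.08 (-0.13 to -0.03), although DDX39A was -0.01 under total-count scaling. Their sum was the same within counting error, with a log2 ratio of -0.0059 (-0.05 to 0.03). DDX21, a helicase of nucleolar transcription, and its neighbour DDX50 had log2 ratios of -0.09 (-0.26 to 0.07) and 0.10 (-0.27 to 0.47). DDX50, which had 126 counts in each library, was -0.0051 under total-count scaling.

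**Figure D4:**
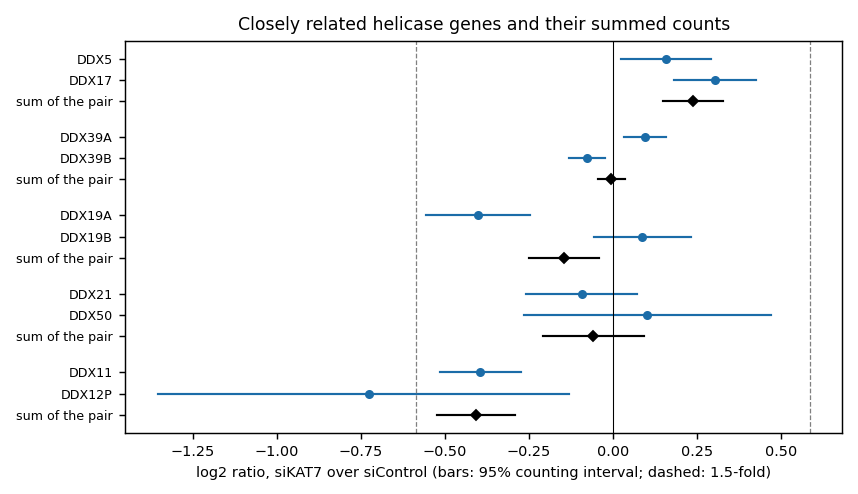
Log2 ratio, siKAT7 over siControl (x axis), of related helicase genes (blue circles) and of the summed counts of each pair (black diamonds), with 95% counting intervals as bars and 1.5-fold as dashed lines. DDX19A (-0.40) and DDX19B (0.09) lie apart, while their sum lies at -0.15.

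Both genome maintenance genes had a log2 ratio below 0, as did 50.7% of all measured genes, and neither reached the 1.5-fold limit. DDX11, a DNA helicase with an iron-sulphur cluster that acts in sister chromatid cohesion, had 973.32 expected counts in siKAT7 and 1372.58 in siControl (42.9 and 56.4 CPM). Its log2 ratio was -0.39 (-0.51 to -0.28). DDX12P, a pseudogene copy of DDX11 on chromosome 12 at 9418673 to 9448229 of GRCh38, had 37.01 in siKAT7 and 65.54 in siControl, a log2 ratio of -0.73 (-1.35 to -0.13). Reads of DDX12P can be assigned in part to DDX11, so its value is uncertain. Both summed gave -0.41 (-0.53 to -0.29). DHX9, which resolves R-loops and RNA structure, had 357 counts in siKAT7 and 465 in siControl, a log2 ratio of -0.28 (-0.48 to -0.08).

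The mitochondrial helicases DDX28 and DHX30 were both below 0, as were 50.7% of all measured genes, and only DDX28 passed the 1.5-fold rule. Both proteins act in assembly of the mitochondrial ribosome. DDX28 had 184.22 expected counts in siKAT7 and 298 in siControl (8.12 and 12.2 CPM), a log2 ratio of -0.59 (-0.87 to -0.32). At 1.51-fold lower it lay just inside the limit. DDX59, listed among the less studied members and not as mitochondrial, lay just outside the limit at 1.47-fold lower. DDX59 had 29 counts in siKAT7 and 46 in siControl, with an interval that included 0 (-1.29 to 0.14). DHX30 had 5080 counts in siKAT7 and 6026.01 in siControl, a log2 ratio of -0.14 (-0.20 to -0.09). Under total-count scaling the ratio of DHX30 was -0.25.

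DDX31 and DDX28 were the coding members past 1.5-fold, and their promoters are shown here for that reason. The windows run from 250 bases before to 50 after the annotated start (RefSeq on GRCh38.p14). These RefSeq starts lie inside the GENCODE gene spans given below. The whole DDX31 window and most of the DDX28 window therefore fall within those spans, and other starts were not examined. Capitals mark matches to any of the 5 motifs searched on both strands. These were CACGTG, known as an E-box, CCGGAAG, which ETS factors bind, CCAAT, known as the CCAAT box, TATAAA, known as the TATA box, and AAGATGGCG, which the factor YY1 binds.
DDX31, chr9:132669934-132670233, reverse strand: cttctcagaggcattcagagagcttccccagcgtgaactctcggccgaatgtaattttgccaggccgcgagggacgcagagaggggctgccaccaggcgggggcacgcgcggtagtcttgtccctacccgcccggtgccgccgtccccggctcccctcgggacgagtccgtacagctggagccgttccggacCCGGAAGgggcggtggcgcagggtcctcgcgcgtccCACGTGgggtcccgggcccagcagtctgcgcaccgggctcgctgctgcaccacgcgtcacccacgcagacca
DDX28, chr16:68023183-68023482, reverse strand: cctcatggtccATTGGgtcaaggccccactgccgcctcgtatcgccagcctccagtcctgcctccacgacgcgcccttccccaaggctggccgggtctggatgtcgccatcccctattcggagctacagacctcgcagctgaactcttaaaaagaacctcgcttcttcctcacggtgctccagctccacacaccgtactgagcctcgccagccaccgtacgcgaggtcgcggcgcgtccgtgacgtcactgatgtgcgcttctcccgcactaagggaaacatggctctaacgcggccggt

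The DDX31 window holds the ETS and E-box letters, and the DDX28 window holds CCAAT on the opposite strand. No motif was found in both. Over the 50 coding members with a promoter in the RefSeq table, CCGGAAG was present in 21 (42.0%), against 10.7% of all 27305 genes with such a window and 19.7% of the 9735 measured ones. CACGTG was present in 8 members (16.0%), against 7.43% of all genes and 10.3% of measured ones. CCAAT was present in 22 members (44.0%), against 35.7% of all genes and 36.8% of measured ones. TATAAA was present in 2 members (4.0%), against 12.0% of all genes and 5.15% of measured ones. AAGATGGCG was present in 3 members (6.0%), against 1.85% of all genes and 4.14% of measured ones. A match to these letters is a description and was not tested for binding.

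By the GENCODE spans, both genes overlap another gene on the opposite strand. The RefSeq start used for the DDX31 window would place DDX31 short of GTF3C4, so that overlap depends on the annotation. DDX31 (ENSG00000125485, chromosome 9, 132592997 to 132670401 of GRCh38, reverse strand) overlaps the start of GTF3C4 by 367 bases, and GTF3C4 had 385.95 expected counts in siKAT7 and 462.11 in siControl, a log2 ratio of -0.16 (-0.36 to 0.04). DDX28 (ENSG00000182810, chromosome 16, 68021274 to 68023442, reverse strand) lies wholly within DUS2, which had 331.78 expected counts in siKAT7 and 410 in siControl, a log2 ratio of -0.20. No source used here gives the strand setting of the libraries. Without it, reads cannot be told apart where exons on opposite strands overlap, and overlap of exons was not examined. In all, the spans of 21 of the 49 measured members overlap that of another measured gene, and 20 members have counts that are not whole numbers.

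Of the 4 RNA sensing members, 2 were measured. DHX58 (LGP2), a regulator of RIG-I-like receptors, had 87 counts in siKAT7 and 81 in siControl, a log2 ratio of 0.20 (-0.25 to 0.66). DDX60L, an antiviral gene, had 333 counts in siKAT7 and 395 in siControl, a log2 ratio of -0.14 (-0.36 to 0.07). DDX58, which encodes the viral RNA sensor RIG-I, was under the 1 CPM filter with 15 counts in siKAT7 and 3 in siControl. Its log2 ratio of 2.24 had a counting interval of 0.60 to 4.85, and at this depth the size of the difference could not be resolved. DDX60 had 7 counts in each library.

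The remaining members were scarce. Of the 14 members under the filter, 7 were coding genes with at most 18 counts summed over both libraries, and 7 were DDX11L models with at most 42.74. The germ-line helicases DDX43 and DDX53 had 0 counts in both libraries, where 3 counts correspond to 0.132 CPM in siKAT7 and 0.123 CPM in siControl. DDX4 (VASA), a marker of germ cells, had 0 counts in siKAT7 and 2 in siControl, and DDX25 had 2 in siKAT7 and 0 in siControl. The 7 DDX11L models, pseudogene copies with similar sequences, summed to 17 counts in siKAT7 and 36 in siControl, a log2 ratio of -0.96 (-1.91 to -0.11). Most of these counts were those of DDX11L2, with 11.74 in siKAT7 and 31 in siControl, while DDX11L9 had 5.26 in siKAT7 and 2.5 in siControl. Among the less studied members, DHX32, DHX40 and DHX57 had log2 ratios of -0.20 (-0.49 to 0.08), -0.16 (-0.39 to 0.07) and 0.10 (-0.55 to 0.75), and that of DHX57 was -0.0050 under total-count scaling.

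The DDX and DHX genes had similar ratios as groups. The 32 measured coding DDX genes had a median log2 ratio of -0.08, and the 16 DHX genes also had -0.08. The DHX genes ran from -0.32 to 0.20, and 16 of 16 lay within the 25% limit. The DDX genes ran from -0.78 to 0.30, and 26 of 32 lay within it, against 72.3% of all measured genes. Whether the spread of these groups differs was not tested. By the spelling of the box, 25 measured members with DEAD codons had a median of -0.08 and 9 with DEAH codons had -0.07. Across the 49 members the log2 ratio showed a Spearman correlation of -0.06 with gene length and of 0.11 with the mean CPM. The same values over all measured genes were -0.20 and 0.08. All points share the same pair of libraries.

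RNA helicases with other names gave like values. Of 19 measured, 0 passed the 1.5-fold rule, against 3.91% of all genes in each direction. Of these 19, 7 lay above 0 and 12 (63.2%) below, against 50.7% of all genes below 0. The median was -0.08. EIF4A1, the translation initiation helicase that founded the DEAD box family, had 19146 counts in siKAT7 and 21660.3 in siControl, a log2 ratio of -0.08 (-0.10 to -0.05). The highest of this list was AQR, a spliceosomal helicase, at 0.33 (-0.13 to 0.80).

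G-patch proteins, which bind and switch on DEAH helicases, had a median of 0.01 over 23 measured entries, which was the only positive median among the 3 lists of related genes under TMM scaling. TGS1, listed with them, is known for making the trimethylated cap of small nuclear RNAs, and whether it has a G-patch was not checked. TGS1 was the 1 entry of 23 past the 1.5-fold limit, against 3.91% of all measured genes that were higher by the same rule. It had 75.11 expected counts in siKAT7 and 47 in siControl, a log2 ratio of 0.77 (0.23 to 1.33). The lowest entry was CMTR1, the cap methyltransferase that binds DHX15, at -0.49 (-0.63 to -0.35). Other partners, such as eIF4G and exon junction and THO proteins, had a median of -0.11 over 31 genes and 0 past 1.5-fold. MAGOH, an exon junction protein that works with EIF4A3, was highest, at 0.42 (0.31 to 0.54). PDCD4, an inhibitor of eIF4A, was lowest, at -0.52 (-0.75 to -0.29).

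**Figure D5:**
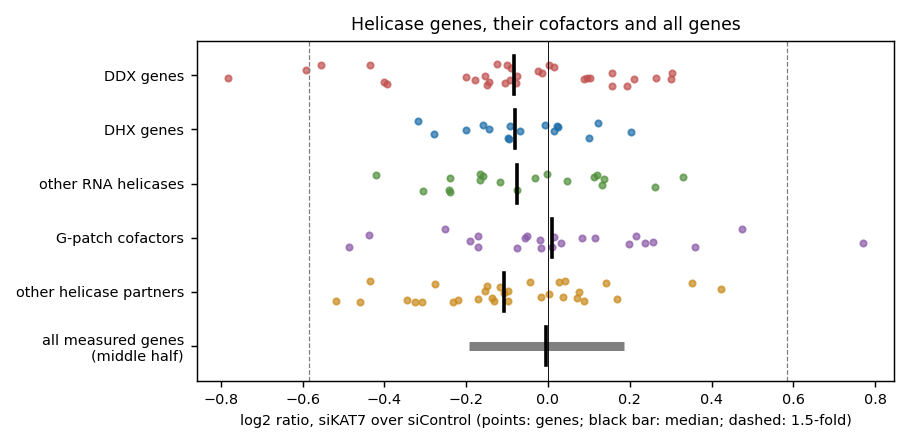
Log2 ratio, siKAT7 over siControl (x axis), of each measured coding DDX and DHX gene and of 3 lists of related genes (rows), with points for genes, a black bar for each median, a grey bar for the interquartile range of all measured genes and dashed lines at 1.5-fold. The medians lie between -0.11 and 0.01, and TGS1 (0.77) is the only point beyond the upper line.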

How the data were processed

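RNA-seq of 1 siKAT7 and 1 siControl library was analysed from the deposited table of expected counts per gene, made by the authors with RSEM 1.3.3 on GRCh38.p13 per the submitters' processing notes. No source used here gives the aligner, annotation release or strand setting. The table repeats both count columns with 0 differing cells, so each was used once. Unnamed rows (331, holding 1.67% of counts in siKAT7 and 1.11% in siControl) were left out. The authors also deposited their fold (ratio) and log2 fold for each gene, used here only as an alternative, and a p-value, not used.

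Counts were rounded and scaled by TMM (edgeR 4.0.16, R 4.3.3; factors 0.964 for siKAT7 and 1.04 for siControl). Log2 ratios used a prior count of 0.5, and exact Clopper-Pearson 95% intervals came from the split of each gene's counts. Since reads copied by PCR were not collapsed to molecules by identifiers, intervals and floors cover counting error only. A gene was measured when its mean reached 1 CPM and called at 1.5-fold with an interval that excluded 0. No p-value was computed. The calls were also run on simulated counts with no spread between cultures and with changes of at least 2-fold. That run cannot give the error of a 1.5-fold call between single cultures. Annotation and coding sequences came from GENCODE 29 (GRCh38).

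Named members were KAT7, those past 1.5-fold, the 6 highest and 6 lowest with at least 100 summed counts, the 3 highest per kilobase in each of 8 role lists, related pairs, and the extremes of 3 further lists, of which 1 is not reported here. DHX8, DHX15, DHX16, DHX35, DHX38, DDX23, DDX27, DHX57, EIF4A1 and members listed only for a sign change were named after their values were seen. Members and lists were chosen with earlier results of these data known. Alternatives were total-count and DESeq2 1.42.0 scaling, prior count 5, the authors' folds, other filters, folds and intervals.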

Additional observations from a re-analysis of the deposited data

How the results depend on the processing

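With 1 library per group, no spread between cultures is known and no replicate could be left out. No paired analysis was possible for the same reason. DDX31, DDX28 and DDX12P were called under TMM, total-count and DESeq2 scaling alike. The number of members at least 1.5-fold lower was 1 (DDX28) at a mean of at least 10 CPM, 6 at a limit of 25% and 0 at 2-fold. DDX28 was no longer called with a prior count of 5, nor DDX12P with a 99% interval. With genes of at least 1 count in either library, 1 member, DDX58, was 1.5-fold higher and 4 were lower, DDX11L2 being added. The median log2 ratio of the members was -0.20 under total-count scaling and -0.20 by the authors' deposited table. Of the 49 measured members, 9 (DDX1, DDX19B, DDX39A, DDX42, DDX50, DHX8, DHX15, DHX33 and DHX57) changed sign under total-count scaling, with values of 0.0014 to 0.10 under TMM. With DESeq2 size factors DDX1 alone did so, at -0.0082. KAT7, at -0.52, was -0.63 under total-count scaling, -0.53 with DESeq2 size factors and -0.52 with prior count 5, alternatives chosen after seeing the data. Of these values, only that under total-count scaling is past the 1.5-fold limit.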

Other observations

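Of the 49 measured members, 10 start within 1000 bases of the start of a coding gene on the opposite strand. All 10 neighbours were measured. The helicase and its neighbour had log2 ratios of the same sign in 3 of the 10 pairs. The neighbours' median was 0.15, with a range of -0.16 to 0.29. DDX49 had a log2 ratio of -0.10, and COPE, a coatomer gene that starts 278 bases away, had 6741.99 expected counts in siKAT7 and 5967.95 in siControl, a log2 ratio of 0.28 (0.23 to 0.33). DDX51 had -0.18, and NOC4L, which also acts in ribosome assembly and starts 113 bases away, had 1505 counts in siKAT7 and 1428 in siControl, a log2 ratio of 0.18 (0.07 to 0.28). Under total-count scaling every ratio is lower by about the same amount, so signs near 0 can depend on the scaling. The pairs were looked at after the members' values were seen, and no test was made.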
